A study of Mus musculus with 6 samples.

Results

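The kinesin superfamily was followed through the neuronal differentiation of P19 cells, a mouse embryonal carcinoma line. The members were 40 genes with a kinesin symbol, of 16272 genes that carried probesets, and 33 of the 40 had probesets of their own (903 probesets, 14 to 56 per gene). The other 7, Kif2b, Kif7, Kif13b, Kif14, Kif16b, Kif19a and Kif26a, were not analysed here. Exon arrays were run on untreated, undifferentiated cells (Day 0), on the neuronal stage (Day 7) and on the early glial stage (Day 10), in biological duplicate, which makes 6 arrays. The 2 later stages followed aggregation with 1 µM all-trans retinoic acid over 4 days and further culture. All samples came from this single line, and a culture of any of these days can hold several cell types. On this array the unit of measurement is the probeset, a few probes that lie in 1 exon or part of it. The gene level was the median over the probesets of a gene of log2(intensity + 16), where 16 is an offset that damps the noise of dim probesets and understates their changes.

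Kinesins are motor proteins that use ATP to move along microtubules or to take microtubule ends apart. In dividing cells they build the spindle, carry the chromosomes and help to separate the daughter cells, and their transcripts are typically high in the G2 and M phases. In neurons, which do not divide, other members carry vesicles, organelles and RNA along axons and dendrites. By these known roles 11 of the kinesins with probesets were grouped as mitotic, 15 as transport and 7 as other. The whole family is shown in the plot of levels by array.

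**Figure D1:**
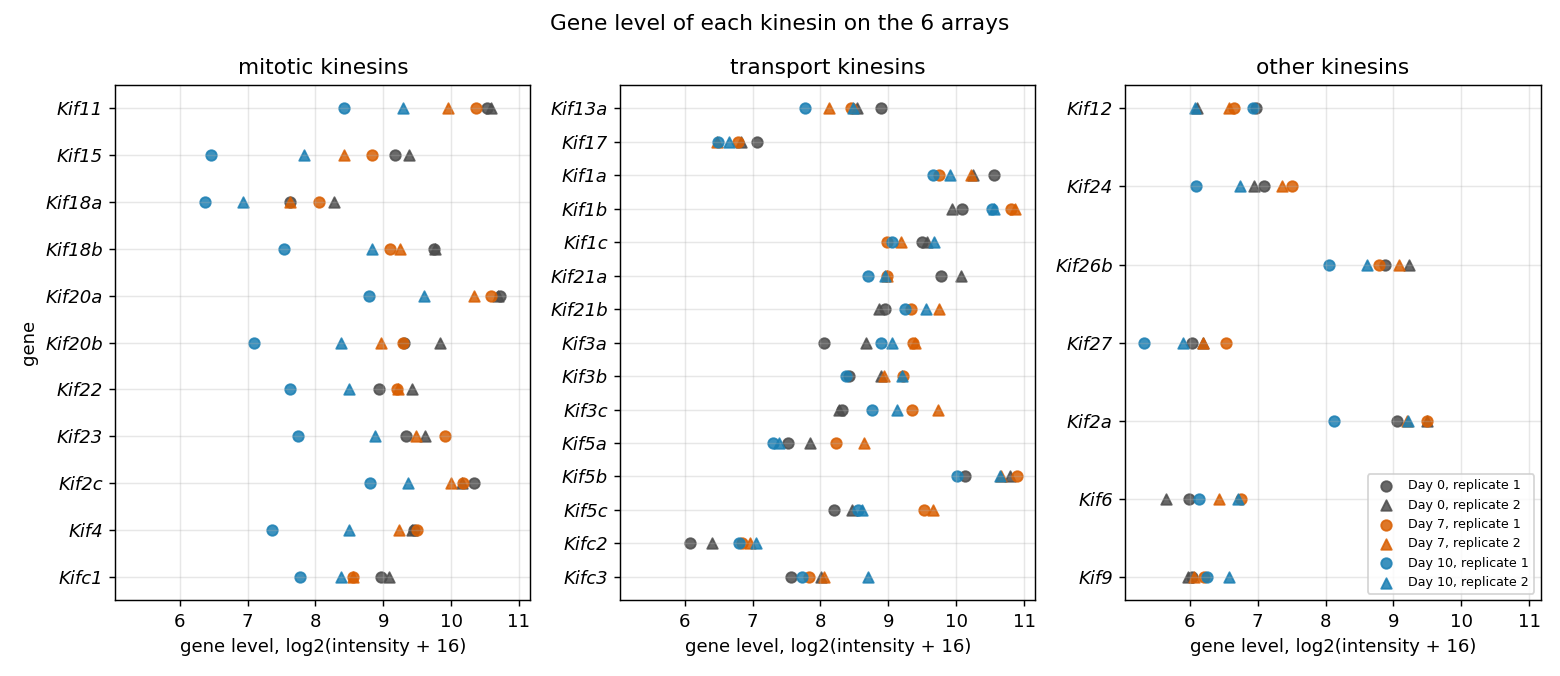
Gene level, log2(intensity + 16), of each of the 33 kinesins (rows) on the 6 arrays (points; colour for the day, circle for replicate 1 and triangle for replicate 2), in panels for mitotic, transport and other kinesins. For all 11 mitotic kinesins both Day 10 arrays lie below every array of the other days, and levels of different genes are not comparable because they come from different probes.

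The labelled stages were checked with marker genes. The summed intensity of 6 embryonal carcinoma markers was 8947 and 11615 for Day 0, 586 and 1470 on Day 7, and 988 and 5595 on Day 10. That of 7 neuron markers was 2363 and 1908 on Day 0, 12953 and 15104 on Day 7, and 6544 and 4592 on Day 10, and all 7 were called higher on Day 7. Gfap, the intermediate filament of astrocytes, had an intensity of 34.4 and 47.3 on Day 0, 54.0 and 103 on Day 7, and 735 and 1430 on Day 10. The other 5 glia markers measured did not all follow it. Fabp7, of radial glia, rose by 4.38 (log2, SE 0.45) by Day 7 and had a change of -0.27 after it, Aldh1l1 fell by 1.92 (SE 0.50) by Day 7, Olig1 was called on no day, and Aqp4 and S100b were too dim to test. Markers of mesenchyme and muscle (7 genes) were mostly high after retinoic acid too. Their sum was 19754 and 22000 on Day 7 and 9454 and 15234 on Day 10, against 1946 and 2277 on Day 0. Acta2 alone gave 10748 and 9917 of the Day 7 sums. Of the 7, 5 were called higher on both later days against Day 0. Actc1 and Cnn1 were not, with changes of -0.17 and 0.66 by Day 7 and -0.86 and -0.63 by Day 10. The Day 10 duplicates stood apart. Kinesin levels were higher in Day 10 replicate 2 than in replicate 1 by a median of 0.58 (log2), where the median over all genes was 0.29, and 6 kinesins were over 2-fold apart, against 0 on Day 0 and Day 7. In such bulk samples fewer cells of a type and less RNA per cell cannot be told apart.

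Between Day 0 and Day 7, when the neuronal stage is reached, 3 transport kinesins rose and no kinesin was called lower. They were Kif5c, a heavy chain of kinesin-1 that is enriched in neurons, and Kif3c and Kif3a, motor subunits of kinesin-2. A gene was called when limma, fitted to all 6 arrays and 11390 genes with Benjamini-Hochberg adjustment, gave an adjusted p under 0.05 and the fold was at least 2. Of the 33 kinesins, 30 passed the filter on dim genes and were tested, and 3 (Kif6, Kif9 and Kif27) were too dim. Of the 30 tested, 3 were called higher and 0 lower, where 11.2% of all tested genes were called higher and 4.52% lower. The family as a whole was thus called higher about as often as all genes. By class, 3 of 15 transport kinesins, 0 of 11 mitotic and 0 of 4 other kinesins were called higher. At an unadjusted p under 0.05, 6 transport kinesins were higher and 1 was lower, with 0 mitotic and 0 other kinesins in either direction, and over all genes tested 18.9% were higher and 9.26% lower at that p.

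The median intensity of Kif5c over its probesets was 278 and 336 on Day 0, 725 and 792 on Day 7, and 361 and 375 on Day 10. Both Day 7 arrays were above all others, and Day 10 lay a little over Day 0. The gene rose 2.41-fold from Day 0 to Day 7 (log2 1.27, adjusted p = 0.00967 from limma, SE 0.30 with 2 arrays per day). Kif3c went from 302 and 292 on Day 0 to 636 and 836 on Day 7, with 417 and 544 on Day 10. It rose 2.38-fold by Day 7 (log2 1.25, SE 0.31, adjusted p = 0.013 from limma), again with no overlap between the days. Kif3a, the partner of both Kif3b and Kif3c in kinesin-2 dimers, had 248 and 392 on Day 0, 644 and 657 on Day 7, and 460 and 515 on Day 10. Its rise was 2.03-fold (log2 1.02, SE 0.32, adjusted p = 0.043 from limma), just past the limit. Leaving out 1 array changed these calls, and Kif3a also lost its call with 8 other settings, among them an offset of 50 (0.95) and the mean of the probesets (0.96). Without Day 0 replicate 1, Day 7 replicate 1 or Day 7 replicate 2, 0 of the 3 were called, and without Day 0 replicate 2 Kif3a and Kif5c were.

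Other carriers of axonal cargo did not pass the test by Day 7. Kif1b, which carries synaptic vesicle precursors and mitochondria, had 1070 and 969 on Day 0, 1770 and 1858 on Day 7, and 1455 and 1498 on Day 10. The days did not overlap, and the change to Day 7 was 0.82 (log2, SE 0.30, adjusted p = 0.077 from limma). Kif5a, the kinesin-1 heavy chain most restricted to neurons, had 168 and 213, then 285 and 385, and 142 and 152 on Day 10. Its change was 0.76 (SE 0.31, adjusted p = 0.12 from limma). Kif5b, the kinesin-1 heavy chain found in most cells, had a change of 0.32 (SE 0.35), and Kif3b one of 0.41 (SE 0.35). Kif1a, the other carrier of synaptic vesicle precursors, had a change of -0.42 (SE 0.32), and Kif1c, which carries dense core vesicles, one of -0.45 (SE 0.32). Over the 15 transport kinesins the median change was 0.41 and the range -0.94 to 1.27, beside a median of 0.10 over all genes tested. That of the transport kinesins was 0.18 without Day 0 replicate 1, 0.65 without Day 0 replicate 2 and 0.15 with each array centred. The groups of arrays did not overlap for 8 transport kinesins that were higher on Day 7 and for 5 that were lower. Among all genes tested, 36.9% were higher and 25.9% were lower without overlap.

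Kif21a went the other way. It belongs to kinesin-4, whose members pause microtubule growth, and it had 864 and 1055 on Day 0, 487 and 491 on Day 7, and 399 and 478 on Day 10. All 4 later arrays were below both arrays of Day 0. The change to Day 7 was -0.94 (SE 0.30, adjusted p = 0.048 from limma), short of the fold limit, and by Day 10 the gene fell by 1.10 on the log2 scale (SE 0.30, adjusted p = 0.026 from limma). This call was lost without any 1 array except Day 10 replicate 2, with quantile normalization (-0.90) and with only the arrays compared (adjusted p = 0.058 from limma). Its paralog Kif21b had 477 and 452, then 627 and 847, and 590 and 733 on Day 10, and its change to Day 7 was 0.63 (SE 0.31, adjusted p = 0.205 from limma). With each array centred on its median gene, which lowered every change from Day 0 to Day 7 by 0.26 (log2), Kif5c was called higher and Kif21a lower. That scaling also moved the share of higher genes among all called genes from 71.3% to 48.6%.

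The mitotic kinesins showed no called change by Day 7. Their median change was -0.24 and the range ran from -0.65 for Kif15 to 0.22 for Kif23, with 9 of 11 below 0. Leaving out Day 0 replicate 1 moved the median to -0.43, leaving out replicate 1 or 2 of Day 7 moved it to -0.37 or -0.11, and centring each array moved it to -0.50. The largest fold in size was 1.57 for Kif15, and the lowest adjusted p among the 11 was 0.33. No mitotic kinesin had both Day 7 arrays above both Day 0 arrays, 6 had both below and 5 overlapped. Among all genes tested, 36.9% had both above and 25.9% had both below.

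**Figure D2:**
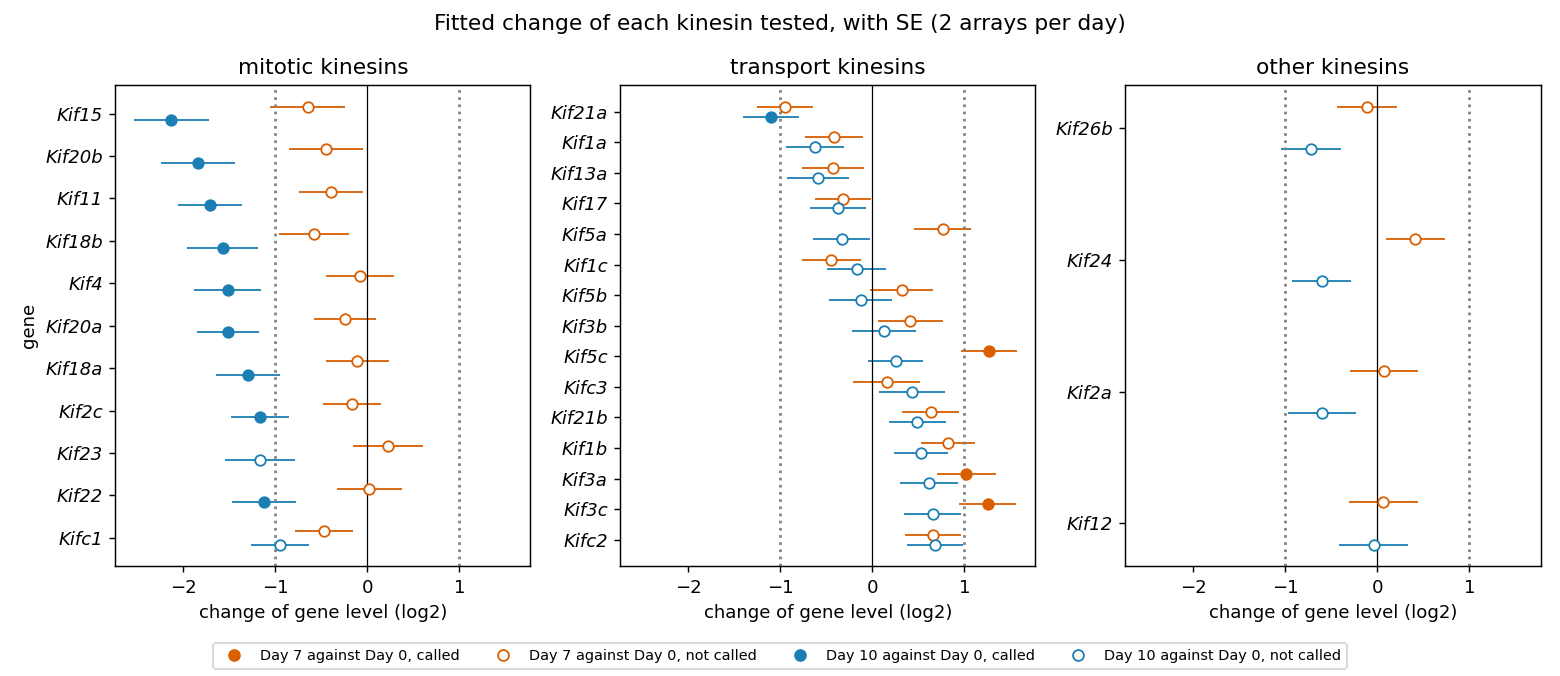
Fitted change of gene level (log2, x axis) with its SE for the 30 kinesins tested (rows), Day 7 against Day 0 in orange and Day 10 against Day 0 in blue, filled where called and with dotted lines at a fold of 2. The 3 filled orange points are Kif5c, Kif3c and Kif3a, and 9 of the 10 filled blue points are mitotic kinesins.

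By Day 10 the mitotic kinesins were low. Against Day 0, 9 of 11 fell, among them Kif15, Kif20b and Kif11, and the other 2, Kif23 and Kifc1, had adjusted p of 0.054 and 0.059. Of the 15 transport kinesins 1 fell, Kif21a, and 0 rose. Among all genes tested 7.43% were called lower and 7.27% higher. The median change was -1.51 over the mitotic kinesins, 0.12 over the transport kinesins and -0.11 over all genes tested. For 11 of 11 mitotic kinesins both Day 10 arrays lay below both Day 0 arrays, where 30.2% of all genes did. The same held for 5 of 15 transport kinesins, while 6 had both arrays above Day 0, against 22.3% of all genes.

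Among motors that shape the spindle, Kif11 (Eg5), which pushes the poles apart, had 1454 and 1528 on Day 0, 1310 and 979 on Day 7, and 326 and 608 on Day 10. It fell 3.26-fold from Day 0 to Day 10 (log2 -1.71, adjusted p = 0.00512 from limma, SE 0.35 with 2 arrays per day). Kif15, which can keep the spindle bipolar beside Kif11, had 562 and 650, then 442 and 326, and 72.5 and 212 on Day 10. Its fall was 4.37-fold (log2 -2.13, SE 0.40, adjusted p = 0.0033 from limma), and replicate 1 of Day 10 stood far under replicate 2. Kifc1, a minus-end motor that focuses the poles, had 483 and 526, then 359 and 361, and 203 and 316, a change of -0.95 (SE 0.32) that did not pass.

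Motors and depolymerases that act on chromosomes moved in a narrower range. Kif4, a chromokinesin of chromosome condensation and the spindle midzone, had 688 and 674 on Day 0, 708 and 583 on Day 7, and 149 and 344 on Day 10. It fell by 1.52 on the log2 scale (SE 0.37, adjusted p = 0.014 from limma). Kif22, which moves chromosome arms away from the poles, had 476 and 669, then 570 and 576, and 181 and 345. It fell by 1.12 (SE 0.35, adjusted p = 0.045 from limma), next to the threshold. Kif2c, the centromeric depolymerase MCAK, had 1283 and 1134, then 1140 and 1008, and 432 and 644, and fell by 1.17 (SE 0.32, adjusted p = 0.024 from limma). Both Day 10 arrays were again the lowest. Kif18a, which damps the movement of chromosomes at the spindle equator, had 181 and 294, then 250 and 182, and 67.0 and 106, with a fall by 1.29 (SE 0.35, adjusted p = 0.023 from limma). Kif18b, which shortens astral microtubules, had 841 and 856, then 535 and 592, and 170 and 438, with a fall by 1.57 (adjusted p = 0.014 from limma, SE 0.38). Of the 22 probesets of Kif18b, 20 are annotated with an older and a current name of the gene.

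Motors of cytokinesis, which act at the midzone and the bridge between daughter cells, were low as well. Kif20a had 1671 and 1642 on Day 0, 1531 and 1278 on Day 7, and 427 and 758 on Day 10, a fall by 1.51 on the log2 scale (SE 0.34, adjusted p = 0.00841 from limma). Kif20b had 619 and 899, then 608 and 483, and 121 and 317, a fall by 1.83 (SE 0.40, adjusted p = 0.00769 from limma). Kif23, the motor of the centralspindlin complex, had 628 and 765, then 942 and 700, and 198 and 454. Its change was -1.16 (SE 0.38, adjusted p = 0.054 from limma), though both Day 10 arrays were below all others. For Kif4, Kif22 and Kifc1 the genome holds near-identical copies, and signal from those copies cannot be told from that of the gene here.

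The 2 arrays of Day 10 gave different sizes. The median over the mitotic kinesins relative to the Day 0 mean was -1.92 in Day 10 replicate 1 and -0.95 in replicate 2, and replicate 1 was the lower for 11 of 11. The embryonal carcinoma marker Pou5f1 (Oct4) moved with this difference, with an intensity of 320 in replicate 1 and 2301 in replicate 2, against 4287 and 5935 on Day 0. The summed embryonal carcinoma markers given above differed the same way, with 0 of the 6 under an intensity of 16 on either array (Zfp42, the dimmest, had 19.8 and 23.7), and so did the glia markers (1707 and 4376 over 6 genes). The mesenchyme and muscle markers were also higher in replicate 2 (9454 and 15234 over 7 genes). The neuron markers went the other way (6544 and 4592 over 7 genes). Tdgf1, an embryonal carcinoma marker, was at 1367 in replicate 2, above both Day 0 arrays (514 and 525). The part of any of these markers in the mitotic kinesin levels was not tested. Without Day 10 replicate 1 fewer kinesins were called lower on Day 10 (Kif11, Kif15 and Kif20a), and fewer of all genes were too. Leaving out Day 10 replicate 2 gave more lower calls among the kinesins, but also among all genes. Leaving out Day 0 replicate 2 gave fewer of both. Without Day 10 replicate 2 the median change of the mitotic kinesins moved from -1.51 to -1.92. That of the transport kinesins went from 0.12 to -0.29. The sign of the change was the same in every fit without 1 array for the 10 kinesins called lower. With quantile normalization the calls of Kif2c (-0.95) and Kif22 (-0.96) were also lost, and Kif22 kept its call in no fit that left out 1 array except that without Day 10 replicate 2.

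**Figure D3:**
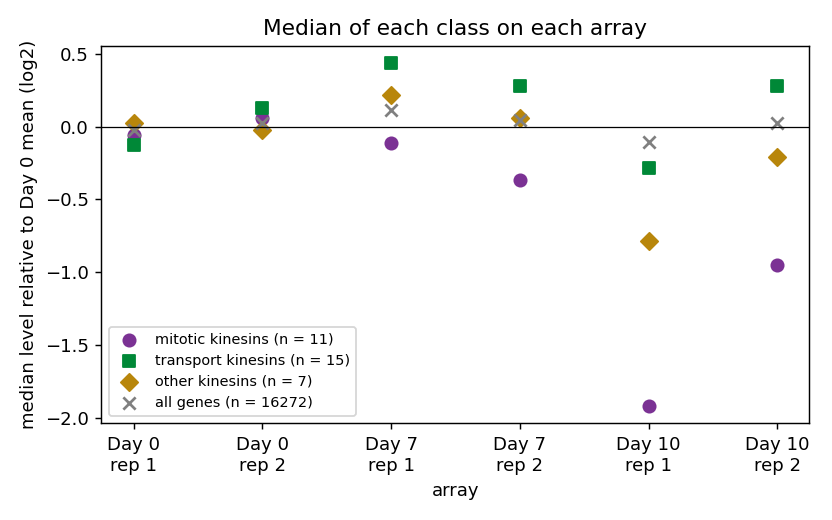
Median gene level of each class relative to the Day 0 mean (log2, y axis) on each of the 6 arrays (x axis), for 11 mitotic, 15 transport and 7 other kinesins and all 16272 genes. The mitotic median is -1.92 and -0.95 for Day 10, against -0.11 and -0.37 for Day 7.

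The step from Day 7 to Day 10 gave 0 called kinesins in limma, beside 0.694% of all genes called (0.334% lower and 0.36% higher), and 13 kinesins (10 of them mitotic) had an unadjusted p under 0.05, all lower on Day 10, where 14.2% of all genes were lower and 2.75% higher at that p. All 11 mitotic kinesins lay below Day 7, by a median of -1.27 and a range of -1.48 to -0.48, and in each the arrays did not overlap, as for 37.4% of all genes. The median was -0.20 over the transport kinesins and -0.24 over all genes tested. The lowest adjusted p was 0.088, for Kif4, whose change was -1.44 (SE 0.37). Kif5c had a change of -1.01 (SE 0.30, adjusted p = 0.11 from limma) and Kif5a one of -1.10 (SE 0.31, adjusted p = 0.11 from limma), so both Day 10 values were nearer to Day 0 than those of Day 7. The count of called kinesins in this comparison depended on the arrays fitted and on how the gene level was made. Leaving out Day 10 replicate 2 gave lower calls among the kinesins, but also many more among all genes. The median change was then -1.68 over the mitotic and -0.33 over the transport kinesins. Without Day 10 replicate 1 these medians were -0.79 and -0.03. Leaving out either Day 0 array kept the mitotic median at -1.27 but also gave kinesin calls, although Day 0 is not compared here. When a gene level was the mean of its probesets in place of their median, 10 kinesins were called lower.

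The other kinesins had no called change on any day. Kif24, a depolymerase of the mother centriole, had 121 and 108 on Day 0, 165 and 149 on Day 7, and 52.5 and 90.6 on Day 10. Its change was 0.41 (SE 0.32) by Day 7 and, after it, -1.02 between Day 7 and Day 10 (SE 0.32, with limma's adjusted p at 0.14). Kif2a, a depolymerase that limits the growth of axon branches and also works at spindle poles, had 517 and 703, then 704 and 571, and 264 and 579. Day 10 replicate 1 alone stood low, and the change from Day 0 was 0.07 (SE 0.37) on Day 7 and -0.60 (SE 0.37) on Day 10. Kif6 was too dim to test, at 34.2 to 91.9 on the 6 arrays. Kif26b had a change of -0.12 (SE 0.32) by Day 7 and Kif12 one of 0.06 (SE 0.38).

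Genes that work beside the kinesins were taken from lists of known partners. Of 17 measured mitotic partners (spindle kinases, the chromosomal passenger complex, checkpoint and midzone proteins), 0 were called by limma on Day 7 in either direction and 13 fell from Day 0 to Day 10, with 0 higher, where 7.43% of all genes fell. Bub1, a kinase of the spindle checkpoint, fell by 1.94 on the log2 scale (SE 0.38, adjusted p = 0.0038 from limma), and Mki67, the proliferation antigen Ki-67, fell by 1.67 from Day 0 and by 2.15 from Day 7 (SE 0.40, with limma's adjusted p at 0.013 and 0.027). Of 16 transport partners, 6 rose by Day 7 and 0 fell, where 11.2% of all genes rose. They included Klc1, the kinesin-1 light chain, at 1.60 (SE 0.33, adjusted p = 0.0038 from limma), and Kifap3, which ties cargo to Kif3 motors, at 1.38 (SE 0.35, adjusted p = 0.015 from limma). The largest were Fez1, an adaptor of kinesin-1, at 2.97 (SE 0.39), and Apba1 (Mint1), which links Kif17 to its cargo, at 2.95 (SE 0.33). Kif17 itself had a change of -0.32 (SE 0.31).

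Promoters of the mitotic kinesins were read next to these levels, because genes of the G2 and M phases often carry the cell cycle genes homology region (CHR) and CCAAT boxes. Promoters of 32 kinesins were found in RefSeq (GRCm38.p6), as windows of 250 bases before to 50 after the start. The letters TTTGAA were searched for the CHR on both strands, with TTCGAA as its other accepted form, and so was the box named CCAAT, and a CHR and a CCAAT box can share a letter at their ends. A CHR was held by 10 of 12 mitotic kinesin promoters (83.3%), 1 of 11 transport promoters (9.09%) and 3 of 9 others (33.3%), against 21.7% of all 27025 genes in the table. CCAAT was held by 8 of 12, 3 of 11 and 4 of 9, against 41.1%, and both by 7 of 12, 0 of 11 and 3 of 9, against 8.61%. The 12 mitotic promoters include Kif14 and Kif2b, which had no probesets. A match of letters is a description and was not tested as a site. The stretches below run from 80 bases before to 10 after the start of 4 mitotic kinesins and of the transport kinesin Kif5c, with matches in capitals, where those on the opposite strand appear as the reverse complement.
Kif11 (chr19:37376302-37376391, + strand): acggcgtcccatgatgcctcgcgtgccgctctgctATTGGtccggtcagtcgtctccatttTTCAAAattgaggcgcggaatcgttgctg
Kif22 (chr7:127042411-127042500, - strand): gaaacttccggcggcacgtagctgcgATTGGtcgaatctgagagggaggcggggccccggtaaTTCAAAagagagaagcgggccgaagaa
Kif15 (chr9:122951001-122951090, + strand): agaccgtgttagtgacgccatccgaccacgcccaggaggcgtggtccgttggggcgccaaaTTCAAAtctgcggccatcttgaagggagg
Kifc1 (chr17:33890624-33890713, - strand): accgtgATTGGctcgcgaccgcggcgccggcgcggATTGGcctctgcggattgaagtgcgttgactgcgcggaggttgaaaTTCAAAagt
Kif5c (chr2:49619206-49619295, + strand): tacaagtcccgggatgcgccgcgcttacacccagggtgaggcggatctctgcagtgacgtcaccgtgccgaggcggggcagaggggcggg

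Kif11, Kif22 and Kifc1 hold both kinds of match in this stretch and Kif15 a CHR alone, and Kif5c holds neither. The stretches do not stand for all members. In the full windows Kif18a, which fell by Day 10, holds neither kind. Of the other kinesins that rose by Day 7, Kif3a holds a CCAAT box and Kif3c neither kind. Kifc1 was called on no day. A link between these matches and the direction of change was not tested.

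Within the genes, exon use was compared by the splicing index (SI), the change between days of the log2 level of a probeset after that of its gene was subtracted. SI was tested for 751 probesets of 27 kinesins, of 116452 probesets in all, and limma called 0 in any comparison (0% of all probesets were called as well). For Day 7 the lowest adjusted p was 0.27, and an unadjusted p under 0.05 was reached by 17 kinesin probesets that were higher and 6 that were lower (3.06%, against 4.64% of all probesets). An absolute SI of at least 1.35, a fold of 2.55, was reached by 8 kinesin probesets, 6 positive and 2 negative, or 1.07% against 0.866% of all. An SI within 0.5 of 0 was found for 90.8% of the kinesin probesets and 87.4% of all. The positive ones belonged to Kif2a (1), Kif21b (2), Kif1b (2) and Kif15 (1), as the plot of SI by gene shows.

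**Figure D4:**
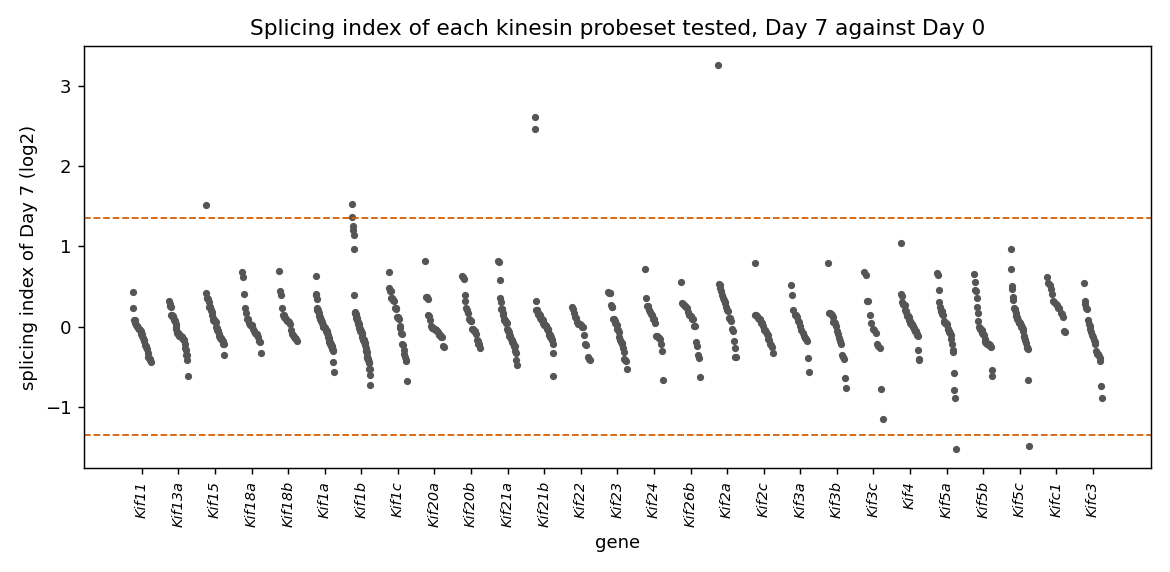
Splicing index of Day 7 against Day 0 (log2, y axis) of the 751 tested kinesin probesets (points), sorted within each of 27 genes (x axis), with dashed lines at 1.35 on either side of 0. Of the 8 points past the lines, the highest are those of Kif2a (3.26) and Kif21b (2.62 and 2.46).

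The candidate exons that were selected in the study on these same arrays hold 5 kinesin probesets in 3 genes. Their direction on the arrays is thus not independent evidence. The study also tested 3 of them, Kif2a 5345537, Kif21b 5130589 and Kif1b 4352234, by semiquantitative RT-PCR. For each it reported a change from Day 0 to Day 7 in the direction of its SI. The sequences of all 5 probesets, as listed by the study, are shown because the study selected them. The 2 highest SI values of the family are among them. The probesets lie on chromosome 13 (Kif2a, minus strand), chromosome 1 (Kif21b, plus strand) and chromosome 4 (Kif1b, minus strand). Their sequences have 106, 77, 98, 213 and 36 bases in the order printed, and a whole exon can be longer. All letters are in lower case because no motif is marked.
Kif2a 5345537: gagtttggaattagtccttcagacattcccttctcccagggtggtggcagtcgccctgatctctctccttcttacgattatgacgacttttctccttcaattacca
Kif21b 5130589: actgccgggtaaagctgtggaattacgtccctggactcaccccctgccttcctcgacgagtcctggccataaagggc
Kif1b 4949995: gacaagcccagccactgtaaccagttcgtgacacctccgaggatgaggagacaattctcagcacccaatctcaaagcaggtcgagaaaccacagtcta
Kif1b 4630160: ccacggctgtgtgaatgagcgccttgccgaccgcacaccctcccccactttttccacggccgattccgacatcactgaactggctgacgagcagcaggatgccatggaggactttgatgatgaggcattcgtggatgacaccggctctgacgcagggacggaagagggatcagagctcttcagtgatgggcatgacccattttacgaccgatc
Kif1b 4352234: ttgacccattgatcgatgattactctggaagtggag

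The Kif2a probeset had an intensity of 17.0 and 5.93 on Day 0, 221 and 293 on Day 7, and 88.3 and 80.1 on Day 10. It was near or under the offset on Day 0 and above it on all later arrays. Its SI was 3.26 for Day 7 (SE 0.52, adjusted p = 0.37 from limma) and 2.50 for Day 10 (SE 0.52), while the gene level itself had the change of 0.07 given above. Against the upstream probeset alone it went from -5.93 (log2) on Day 0 to -2.97 on Day 7 and -3.98 on Day 10, a difference of 2.96 by Day 7. The downstream neighbour was itself dim, at 0.012 to 35.2, and was left out of this comparison.

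The Kif21b probeset had 36.1 and 21.8 on Day 0, 308 and 536 on Day 7, and 252 and 191 on Day 10, with no overlap between Day 0 and the later days. Its SI was 2.62 for Day 7 (SE 0.31, adjusted p = 0.27 from limma) and 1.92 for Day 10 (SE 0.31). A second Kif21b probeset, 4434847, had the next highest SI, 2.46 (SE 0.29). It was at 0.0058 and 0.0069 on Day 0, then at 75.0 and 188, and at 69.1 and 76.3 on Day 10. Those Day 0 values lie under the offset, so that the offset sets the size of this SI, which was 1.19 with an offset of 50 and 6.25 with an offset of 1. The adjacent probesets of the first exon had 914 and 750 (upstream) and 414 and 371 (downstream) on Day 0 and 1119 and 1524, and 546 and 868, on Day 7, and the exon was higher by 2.53 (log2) against their mean on Day 7 than on Day 0.

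Kif1b held 3 candidate exons, all with a positive SI on Day 7. Probeset 4949995 had 267 and 152 on Day 0, 1052 and 1147 on Day 7, and 536 and 803 on Day 10, an SI of 1.53 (SE 0.30). Probeset 4630160 had 535 and 343, then 1878 and 2136, and 1705 and 886, an SI of 1.36 (SE 0.36). The shortest probeset, 4352234, had 16 and 17.6, then 136 and 101, and 58.4 and 45.4, an SI of 1.20 (SE 0.25). Its Day 0 values lie near the offset, which understates this SI. Adjusted p from limma was 0.49, 0.81 and 0.58 in this order, and the arrays of Day 0 and Day 7 did not overlap for any of the 3. Of the 55 Kif1b probesets tested, 6 were higher at an unadjusted p under 0.05 and 1 was lower. The neighbours 4420256 and 5125179 were among the higher ones, with an SI of 1.25 (SE 0.29) and 1.15 (SE 0.34), so that the change against the mean of both neighbours was 0.50 for 4352234, 1.11 for 4949995 and 1.79 for 4630160. Against the upstream neighbour alone it was -0.05, 1.84 and 1.89.

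**Figure D5:**
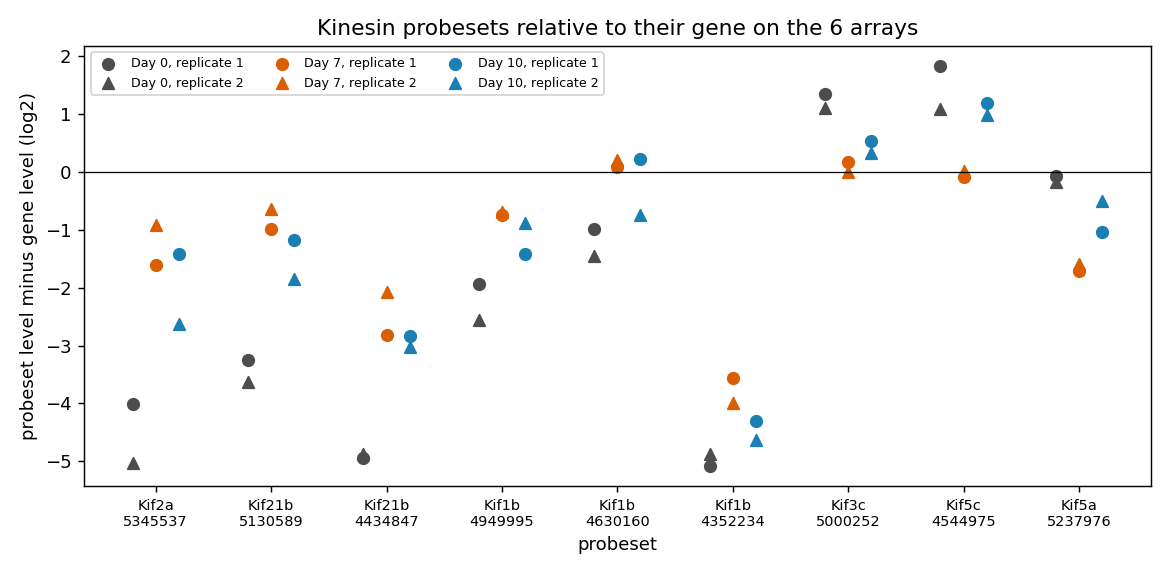
Probeset level minus gene level (log2, y axis) of 9 kinesin probesets (x axis) on the 6 arrays (points; colour for the day, circle for replicate 1 and triangle for replicate 2). The Kif2a, Kif21b and Kif1b probesets are lowest on both Day 0 arrays, and those of Kif5a, Kif5c and Kif3c are lowest on the Day 7 arrays.

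The 3 lowest SI values of Day 7 were all in transport kinesins. The Kif5a probeset 5237976 had an intensity of 159 and 187 on Day 0, 75.8 and 117 on Day 7, and 60.5 and 102 on Day 10, an SI of -1.53 (SE 0.25). The Kif5c probeset 4544975 had 1028 and 730, then 677 and 802, and 845 and 758, an SI of -1.5 (SE 0.29), and the Kif3c probeset 5000252 had 796 and 649, then 717 and 830, and 614 and 683, an SI of -1.15 (SE 0.22). The Kif5c and Kif3c intensities overlapped between Day 0 and Day 7 while the level of both genes rose, whereas the Kif5a probeset was lower on Day 7. Adjusted p from limma was 0.37, 0.49 and 0.47 in this order. diffSplice, which sets each probeset against the others of its gene, called 5 kinesin probesets for Day 7, the candidate exon of Kif2a, both of Kif21b, and Kif1b 4949995 and 4630160, and it called 0.222% of all probesets (258). For Day 10 it called 4, those of Kif2a and Kif21b and Kif1a 5075728, which was named after its values were seen, and again 258 in all. The probesets of Kif2a and Kif21b and Kif1b 4352234 passed the filter on dim probesets through Day 7 alone, where they were high, so their calls are no separate evidence of a change. Kif1b 4949995 and 4630160 passed on both days. Against Day 0, Day 10 had 31 higher and 24 lower kinesin probesets with an unadjusted p under 0.05, beside 7.2% of all probesets, and 12 positive and 3 negative past the SI limit, beside 1.23%. Against Day 7 it had 18 higher and 18 lower, beside 4.11%, and 5 positive and 2 negative past the limit, beside 0.653%. For the first exon of Kif21b and for that of Kif2a the SI against Day 0 thus stayed past the limit on Day 10, at 1.92 and 2.50. It was 0.52 for Kif1b 4352234, which was under the limit on Day 7 too, at 1.20.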

How the data were processed

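P19 RNA of 3 days was measured on Mouse Exon 1.0 ST arrays, 2 biological duplicates per day. The deposited values are exon-level intensities on a linear scale for 228090 core probesets, which the authors made by sketch normalization and PLIER. RMA and the Affymetrix Expression Console also stand in the submitters' processing notes, without versions. Probesets were given a gene through the platform annotation, with symbols updated by RefSeq: 208093 had 1 symbol, 4327 several and 15670 none. Of the latter 4327, 144 had several names of 1 current gene and were kept.

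Gene levels were tested by limma 3.58.1 in R 4.3.3 after genes below the 30th percentile of mean level were dropped. SI needed 4 probesets per gene, a gene level not under the 45th percentile for Day 0 and Day 7, and a probeset not under the 25th percentile for 1 of these days. Both steps were run on simulated data with known changes and independent noise. This checked the steps alone, and a lack of SI calls does not show that exon use was unchanged. Kinesins named with values were those called, Kif2a, and the 2 uncalled with the largest change on Day 7 in each class. Others were named to fill out a group after their values were seen. The members, classes, lists and rules were chosen with earlier results of these data known. Precision is limited by having 2 arrays per day.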

Additional observations from a re-analysis of the deposited data

How the results depend on the processing

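Of the 13 kinesin calls, those of Kif11, Kif15 and Kif20a from Day 0 to Day 10 stood without any 1 array. A day left with 1 array was assumed to vary like the other days. In such fits, the count of called kinesins ran from 0 to 3 for Day 7 against Day 0, from 0 to 14 for Day 10 against Day 7 and from 3 to 14 for Day 10 against Day 0. The median change of the mitotic kinesins ran from -1.68 to -0.79 for Day 10 against Day 7 and from -1.92 to -0.95 for Day 10 against Day 0, and that of the transport kinesins for Day 10 against Day 0 from -0.29 to 0.36. Under the other alternatives the count of called kinesins for Day 7 was 2 to 4, where all genes gave 1351 to 2007 calls. For Day 10 against Day 0 it was 7 to 11, where all genes gave 1396 to 1992. For Day 10 against Day 7, where 0 were called, median polish of the probesets gave 5, the mean of the probesets 10, a filter at the 50th percentile 2 and a fit of only the arrays compared 1. The main fit did not pair the arrays by replicate number. The deviations between replicates correlated at -0.08 for Day 0 and Day 7, 0.33 for Day 0 and Day 10, and -0.02 for Day 7 and Day 10. A replicate block gave 9 kinesins for Day 10 against Day 7, 3 for Day 7 and 11 for Day 10 against Day 0. Over all genes, Day 10 against Day 7 gave 79 calls, and 245 with median polish, 461 with the mean, 161 with the stricter filter, 198 with quantile normalization, 169 with centring, 209 with only the arrays compared, 165 with trend and robust and 565 with the replicate block, and 51.9% of the calls were higher, against 71.0% with centring, 69.2% with quantile normalization, 66.0% with no filter, 37.6% with trend and robust, 31.7% with the stricter filter, 29.7% with only the arrays compared, 28.6% with median polish, 22.8% with the mean and 21.4% with the block. Centring raised every change of that step by 0.22 (log2). For SI on Day 7, an offset of 1 gave 1 called kinesin probeset and diffSplice 5, and diffSplice gave 4 on Day 10. Of 1332 values of named genes and probesets under an alternative, 1202 kept direction and side of the threshold, 44 lost a call, 70 gained one and 16 changed sign. The changes of sign on Day 7 were those of Kif22 (-0.025 with the mean, -0.033 with quantile normalization, -0.24 with centring), Kif23 (-0.035 with centring), Kif2a (-0.19 with centring) and Kif4 (0.0101 with median polish, 0.0057 with the mean). For Kif21a from Day 7 to Day 10 they were 0.081 with quantile normalization and 0.058 with centring. Without 1 array, the Day 7 changes ran from -0.43 to 0.22 for Kif18a, -0.22 to 0.26 for Kif22, -0.15 to 0.29 for Kif2a and -0.22 to 0.055 for Kif4, and the SI of Kif5c 4544975 on Day 10 from -0.74 to 0.0047. Using only probesets listed under 1 name, chosen after the data were seen and aimed at Kif18b, gave the same counts of called kinesins. The causes were not tested.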

Other observations

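Cytoplasmic dynein, the main motor toward the minus ends of microtubules, returns cargo from the axon tip to the cell body with its activator dynactin. Of 15 tested genes of both complexes, 4 rose by Day 7 and 0 fell, with a median change of 0.60 (log2) over the 16 measured, where 11.2% of all genes tested rose and their median was 0.10. Dync1li2, a light intermediate chain that binds cargo adaptors, rose by 1.56 (adjusted p = 0.0031 from limma, SE 0.31), and Dynlt3, a light chain, by 1.36 (SE 0.38, adjusted p = 0.023 from limma). Dctn4, a dynactin subunit, rose by 1.03 and Dynlrb1, another light chain, by 1.01. Of the 16 measured, 12 had a change above 0 by Day 7 and 4 below 0. The dynein heavy chain, Dync1h1, was not called, at -0.27 (SE 0.33) by Day 7 and -0.48 (SE 0.33) by Day 10. From Day 0 to Day 10, 3 of the 15 were higher, Dynlt3 (1.53), Dync1li2 (1.34) and Dctn4 (1.07), and 0 were lower, where 7.27% of all genes rose.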
